A study of Mus musculus with 4 samples.

Results

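Resistin-like and chitinase-like proteins are small families of secreted proteins, and 9 of their genes were followed here in bronchoalveolar lavage fluid (BALF) cells of bleomycin-administered mice: Retnla, Retnlb, Retnlg, Retn, Chil1, Chil3, Chil4, Chia1 and Chit1. They are 9 of the 20802 genes that could be named on the arrays, and 10 of the 39429 probes measure them. The families were chosen by the differences between genotypes on these same arrays, among them those of Retnla and Retnlg. The genotype differences of all members are therefore given as a description, with no test. RNA came from mice labelled as wild-type or as S1pr2-/-, a germline deletion of the gene for the sphingosine-1-phosphate receptor S1P2, with 2 arrays per genotype. Both genotypes shared a mixed 129Ola;C57BL/6J background backcrossed 1 time to C57BL/6J, the wild-type mice being littermates, and were 8 to 10 weeks old. Both received bleomycin intraperitoneally at 0.035 U/g, 2 times a week, and cells were collected on day 22. No array of untreated mice was analysed here, so no value shows a response to bleomycin itself. Whether an array held RNA of a single mouse or of several is not given in the sources used here.

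The resistin-like molecules are cysteine-rich secreted proteins. Retnla (RELM-alpha, also called FIZZ1) is induced in macrophages by interleukin-4 and interleukin-13 through the transcription factor STAT6, and is a standard marker of alternatively activated (M2) macrophages, as is the chitinase-like protein Chil3 (Ym1). The chitinase-like proteins belong to glycoside hydrolase family GH18: Chia1 and Chit1 are active chitinases, whereas Chil1, Chil3 and Chil4 have the chitinase fold without the ability to cleave chitin.

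The signal at the 75th percentile lay between 2489 and 2817 intensity units. Of the 39359 probes measured on all 4 arrays, 67.6% to 72.1% were well above background. No spot was saturated, and all arrays were read on 1 slide in 1 scan, so no batch could be tested. The probe for S1pr2, the targeted gene, went against the labels: its log2 values were -0.13 and -0.16 in wild-type replicates 1 and 2, against 2.67 and 2.54 in the replicates labelled S1pr2-/-, 6.72-fold higher on the latter. Where the probe lies relative to the deleted part of the gene is not given in the sources used here. Every direction below rests on the labels. The labels call the cells alveolar macrophages, and 11 of 11 alveolar macrophage markers were well above background on all 4 arrays, but markers of other cell types were measured too.

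The promoters of the 4 members that frame the description are shown first, since Retnla and Retnlg carry the large differences and Chil3 and Chil4 are a closely related pair that differed little. RefSeq sequences on GRCm38.p6 run from 250 bases before to 50 bases after the annotated start, 5′ to 3′ on the strand of the gene, with the first base of the gene counted as position 0. Capitals mark matches to 3 motifs searched on both strands: the STAT6 motif TTCNNNNGAA, the general STAT motif TTCNNNGAA and the C/EBP motif TTGCNNAA. Retnla lies at chr16:48842359-48842658 and Retnlg at chr16:48872358-48872657, both on the plus strand. Chil3 lies at chr3:106167515-106167814 and Chil4 at chr3:106219430-106219729, both on the minus strand.
Retnla: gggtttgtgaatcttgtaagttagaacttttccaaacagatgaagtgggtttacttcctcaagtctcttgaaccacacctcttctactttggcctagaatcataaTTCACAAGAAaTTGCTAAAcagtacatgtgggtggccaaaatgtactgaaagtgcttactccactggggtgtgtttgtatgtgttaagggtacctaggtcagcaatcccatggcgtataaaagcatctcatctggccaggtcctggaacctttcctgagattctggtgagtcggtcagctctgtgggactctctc
Retnlg: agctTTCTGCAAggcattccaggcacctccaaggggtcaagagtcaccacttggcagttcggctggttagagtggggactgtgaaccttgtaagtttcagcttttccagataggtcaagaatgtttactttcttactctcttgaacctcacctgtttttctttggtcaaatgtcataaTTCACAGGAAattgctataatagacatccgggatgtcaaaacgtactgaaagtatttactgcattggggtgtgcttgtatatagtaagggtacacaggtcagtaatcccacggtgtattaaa
Chil3: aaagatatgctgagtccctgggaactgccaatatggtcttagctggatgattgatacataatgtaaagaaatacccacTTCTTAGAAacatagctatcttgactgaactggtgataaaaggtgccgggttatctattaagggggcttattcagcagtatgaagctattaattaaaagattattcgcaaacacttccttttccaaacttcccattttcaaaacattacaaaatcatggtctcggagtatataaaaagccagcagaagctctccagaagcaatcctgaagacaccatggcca
Chil4: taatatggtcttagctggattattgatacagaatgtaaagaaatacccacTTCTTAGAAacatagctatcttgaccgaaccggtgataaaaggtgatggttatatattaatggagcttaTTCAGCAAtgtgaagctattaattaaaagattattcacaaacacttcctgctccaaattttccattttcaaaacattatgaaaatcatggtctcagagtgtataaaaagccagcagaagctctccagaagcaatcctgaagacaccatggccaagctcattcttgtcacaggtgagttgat

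The STAT6 motif was present in the promoters of 2 of 8 members, Retnla at -145 to -136 and Retnlg at -72 to -63. Of all 32851 promoters of this length, 6.95% hold it. The general STAT motif was present in 2 of 8, Chil3 at -172 to -164 and Chil4 at -200 to -192, against 8.3% of all promoters. The C/EBP motif was present in 3 of 8, Retnla at -134 to -127, Retnlg at -246 to -239 and Chil4 at -131 to -124, against 10.8% of all promoters. No 2 matches overlapped in a member. A match describes the letters only and was not tested for binding. The windows of related genes also resembled each other: 175 of 226 aligned bases of Retnla and Retnlg were identical (77.4%), and 251 of 270 of Chil3 and Chil4 (93.0%). The STAT6 matches of Retnla and Retnlg lie at the same place of their alignment, as do the STAT matches of Chil3 and Chil4. Each count of 2 of 8 is therefore not a count of independent occurrences.

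**Figure D1:**
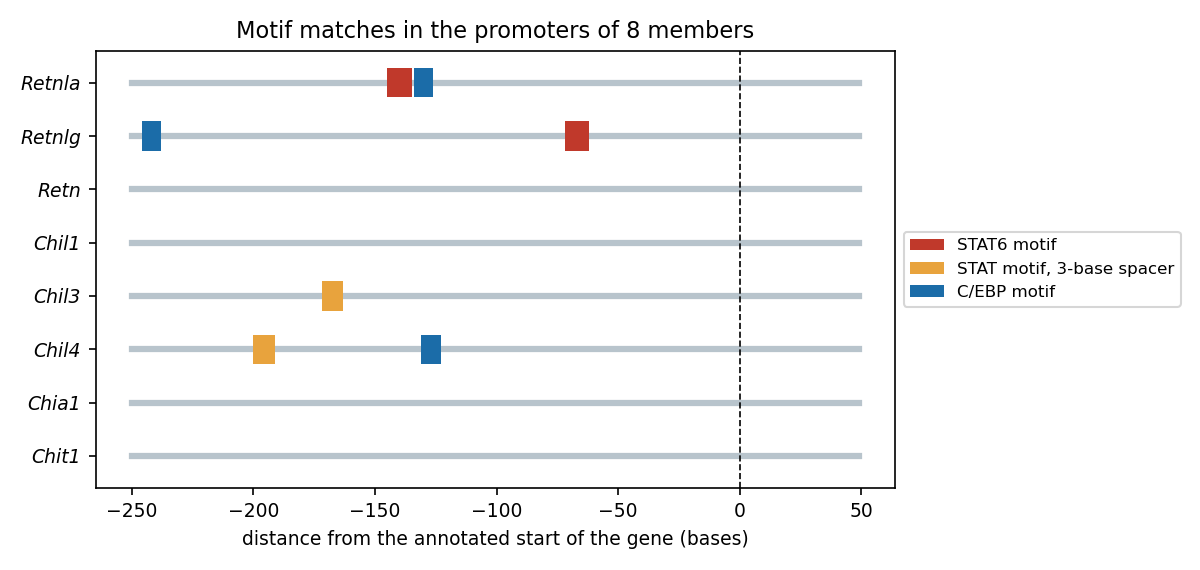
Positions of the motif matches in the promoters of 8 members, in bases from the annotated start of each gene (dashed line). Matches to the STAT6 motif are seen in Retnla and Retnlg, and matches to the STAT motif with the shorter spacer in Chil3 and Chil4.

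Retnla and Retnlg were the members with large differences, and both were lower on the arrays labelled S1pr2-/-. All values are log2 of the signal divided by the 75th percentile of its array. For Retnla the values were 2.99 and 4.51 in wild-type replicates 1 and 2, against 0.94 and 0.34 in the replicates labelled S1pr2-/-. Both wild-type arrays were above both others, and the nearest pair across genotypes was 4.13-fold apart. The difference was -3.11 (standard error 0.64, n = 2 per group), 8.62-fold lower. In a lavage sample, fewer cells of a type and less RNA per cell cannot be told apart.

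Retnlg, encoding RELM-gamma, which is known from bone marrow and granulocytes, had log2 values of 2.65 and 4.33 in wild-type replicates 1 and 2, against -1.79 and -0.85 in the replicates labelled S1pr2-/-. The groups did not overlap, with the nearest pair 11.3-fold apart. The difference was -4.81 (standard error 0.75, n = 2 per group), 28.1-fold lower. By size Retnlg ranked 6 and Retnla ranked 27 among the probes lower on the arrays labelled S1pr2-/-.

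Replicates of these genes spread widely. Wild-type replicate 2 was higher than wild-type replicate 1 by 2.86-fold for Retnla and 3.21-fold for Retnlg. On the arrays labelled S1pr2-/- the order of the replicates was opposite for the 2 genes: replicate 1 was 1.52-fold above replicate 2 for Retnla, and replicate 2 was 1.92-fold above replicate 1 for Retnlg. Without wild-type replicate 2 or another array in turn, the fold ranged from 5.09 to 14.6 for Retnla and from 15.7 to 50.3 for Retnlg.

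The 2 genes did not differ equally between genotypes. The log2 ratio of Retnla to Retnlg within an array was 0.34 and 0.18 in wild-type replicates 1 and 2, against 2.73 and 1.19 in the replicates labelled S1pr2-/-. Only the difference of this ratio between genotypes can be read, because probes differ in brightness. It was 1.71, so that Retnlg was lower by a further 3.26-fold, which became 1.91-fold without replicate 1 labelled S1pr2-/- and 5.57-fold without replicate 2.

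Among the chitinase-like members, Chil4 (Ym2) had log2 values of 3.96 and 4.42 in wild-type replicates 1 and 2, against 3.70 and 3.74 in the replicates labelled S1pr2-/-. The groups did not overlap, but the nearest pair was 1.16-fold apart. The difference was -0.47 (standard error 0.19, n = 2 per group), 1.38-fold lower.

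Chil3 (Ym1), known as an abundant secreted product of alveolar macrophages, had log2 values of 7.69 and 7.86 in wild-type replicates 1 and 2, against 7.64 and 7.85 in the replicates labelled S1pr2-/-. The groups overlapped, and the difference was -0.03 (standard error 0.12). Its probe was the brightest on every array, at 526756 to 592392 intensity units, without a saturation flag. The log2 ratio of Chil4 to Chil3 within an array differed by -0.44 between genotypes.

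Chil1, encoding BRP-39, had log2 values of -2.29 and -2.60 in wild-type replicates 1 and 2, against -2.21 and -3.10 in the replicates labelled S1pr2-/-. The groups overlapped, replicate 1 of the latter being highest and replicate 2 lowest. The difference of -0.21 (standard error 0.37) changed sign without S1pr2-/- replicate 2, to 0.23.

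The remaining measured members were dim. Chia1, the acidic mammalian chitinase, had log2 values of -4.56 and -4.15 in wild-type replicates 1 and 2, against -4.66 and -4.64 in the replicates labelled S1pr2-/-, a difference of -0.30 (standard error 0.17). Retn, resistin itself and mainly an adipocyte product in mice, was read by 2 probes. Their differences were -0.10 (standard error 0.06) and -0.17 (standard error 0.12). These 3 probes did not overlap between genotypes, with nearest pairs 1.01-fold to 1.06-fold apart, but their direction turned with normexp background correction fitted on all spots, to 0.60 for Chia1 and 0.63 and 0.51 for Retn, where the median of all probes was 0.19. That fit put the background of replicate 1 labelled S1pr2-/- at -418 intensity units, and fitted without control spots the differences were -0.20 for Chia1 and -0.11 and -0.13 for Retn. For the first Retn probe it also turned with quantile normalization, to 0.01.

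Retnlb, which is known from intestinal goblet cells, and Chit1, chitotriosidase, were not well above background on any array. Retnlb gave 5.65 to 11.6 intensity units and Chit1 gave 11.6 to 13.2. No fold is given for either.

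**Figure D2:**
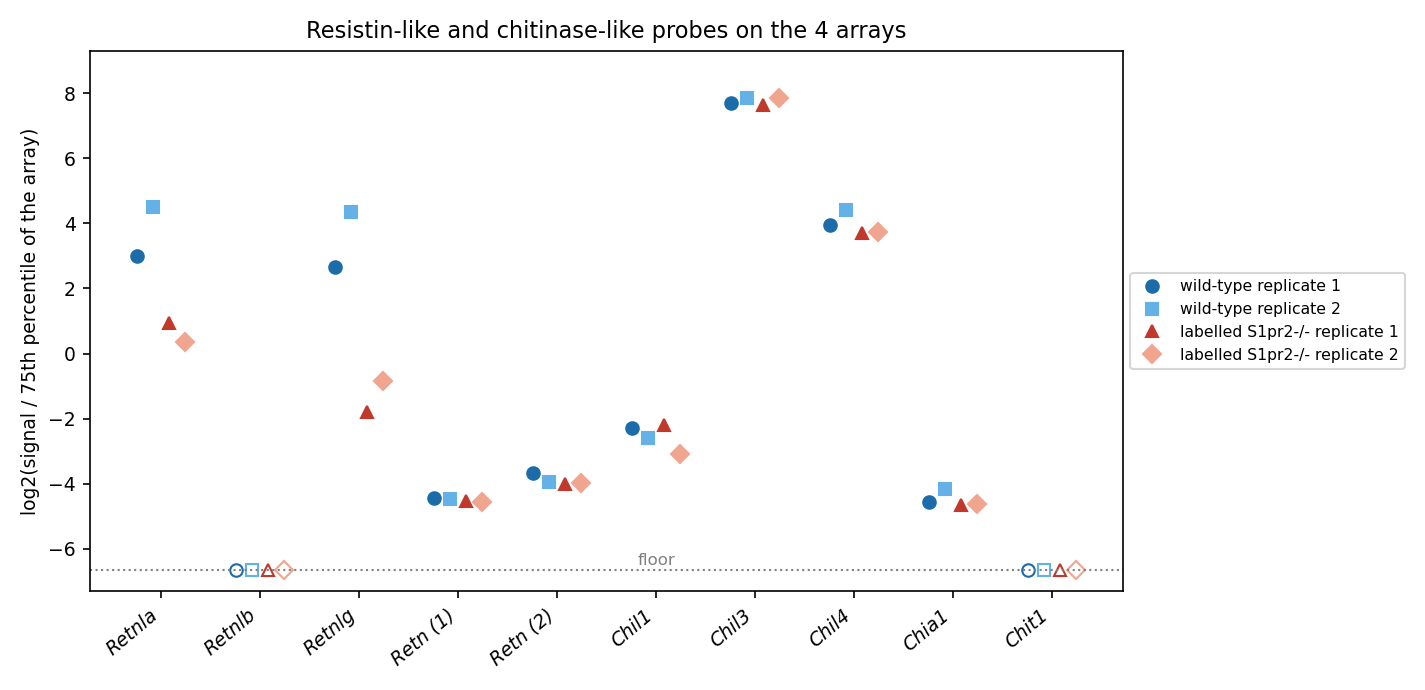
Log2 signal relative to the 75th percentile of the array for 10 member probes, with 1 point per array. Open symbols mark probes not well above background on all arrays. Retnla and Retnlg separate widely between genotypes, from 2.65 to 4.51 on the wild-type arrays and from -1.79 to 0.94 on the others, whereas Chil3 lies between 7.64 and 7.86 on all 4.

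Of 8 member probes that passed the filter on dim probes, 6 had both arrays labelled S1pr2-/- below both of the wild-type, 0 were higher on both and 2 overlapped (Chil1 and Chil3). Of all 27158 probes tested, 21.7% were lower on both and 20.0% higher on both. The count of 6 became 3 (Retnla, Retnlg and Chil4) with quantile normalization and with normexp fitted on all spots, and was 6 with normexp fitted without control spots. At least 2-fold lower were 2 of 8, Retnla and Retnlg, against 1.24% of all probes, and 0 were at least 2-fold higher, against 0.18%. The median difference was -0.25 over the 8 probes and -0.0029 over all. Because the families were selected on these differences, nothing is read from these shares.

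limma called 0 of 27158 probes at an adjusted p under 0.05 (0.0%). At an unadjusted p under 0.05, 5.59% of all probes were lower and 3.99% higher. No such count is given for the members. An exact two-sided permutation test of 2 arrays against 2 cannot give a p below 0.333. The labels do not tie the arrays to separate animals, so any p measures only the spread between these samples.

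**Figure D3:**
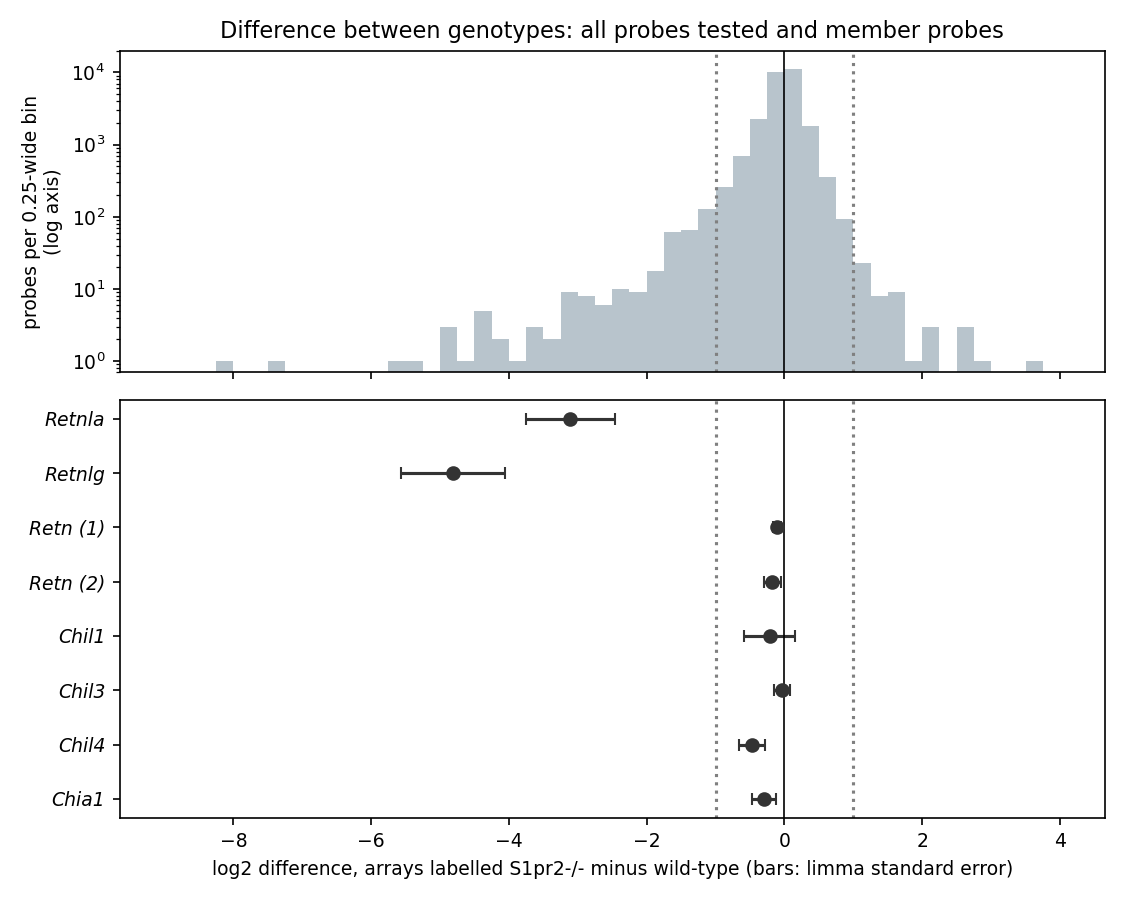
Top, distribution of the log2 difference (arrays labelled S1pr2-/- minus wild-type) over 27158 probes, with a log count axis. Bottom, the same difference for 8 member probes, with limma standard errors as bars and dotted lines at 2-fold; Retnla (-3.11) and Retnlg (-4.81) lie in the left tail and the other 6 between -0.47 and -0.03, of which Chil1, Chia1 and Retn turned above 0 with normexp fitted on all spots and lay below 0 with normexp fitted without control spots.

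The genes whose pattern over the 4 arrays was most like that of each were sought among 19279 probes, by the root mean square (RMS) difference of log2 values after each gene was centred on its mean. Nearest to Retnlg were Ccr3, the eotaxin receptor of eosinophils (RMS 0.18), Alox15, a lipoxygenase (0.23), and Prg2, eosinophil major basic protein (0.26). Nearest to Retnla were Rflnb (0.10), Pi16 (0.14) and Dach1 (0.22). Retnla and Retnlg lay farther from each other, at 1.01. With 4 arrays such likeness is a description. The values were not scaled, so a near gene must also differ between genotypes by a similar amount. Ccr3 and Prg2 return in the eosinophil list below with these same values.

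**Figure D4:**
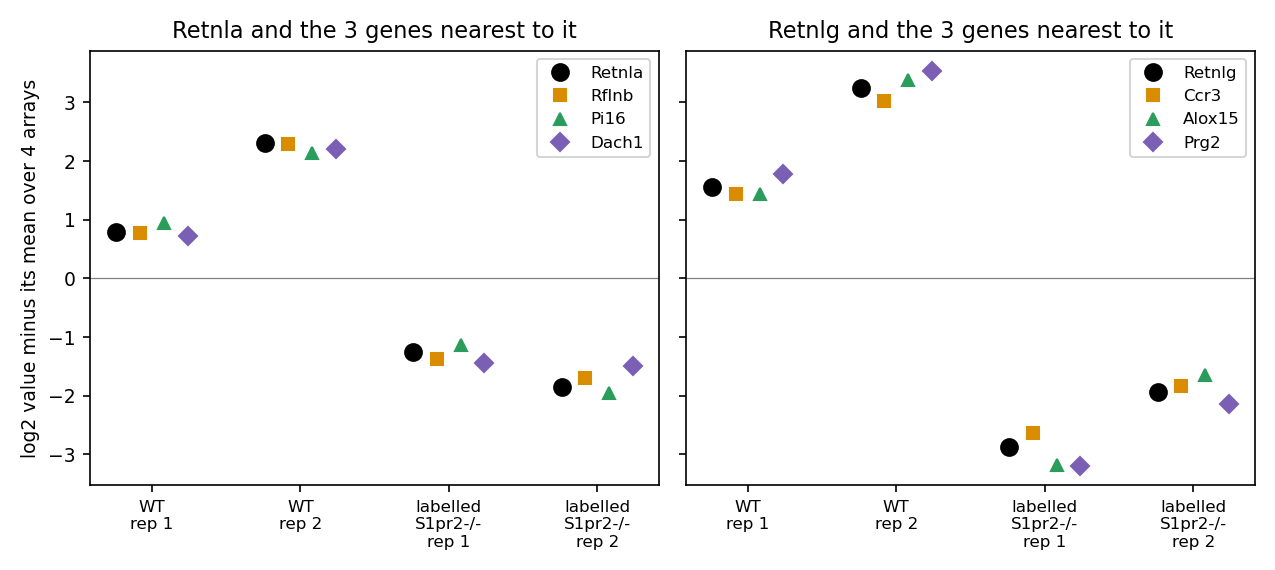
Log2 values minus their mean over 4 arrays for Retnla and Retnlg (black) and the 3 genes nearest to each, at each array. The replicates labelled S1pr2-/- of Retnla stand in the opposite order to those of Retnlg, and those of Dach1 lie closer together than those of Retnla.

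Markers of eosinophils were also lower where Retnla and Retnlg were. Of 7 genes on that list 6 were tested, 6 were lower on both arrays labelled S1pr2-/- and 5 at least 2-fold lower, with a median difference of -4.50. The summed level of the list, in multiples of the 75th percentile, was 6.04 and 14.6 in wild-type replicates 1 and 2, against 2.35 and 3.69 in the replicates labelled S1pr2-/-. Prg2 was lower by 40.1-fold, Gata1 by 48.0-fold and Ccr3 by 22.1-fold. Without wild-type replicate 2 these were 21.7-fold, 28.2-fold and 12.8-fold, and without wild-type replicate 1 they were 73.9-fold, 81.7-fold and 38.3-fold. Prg3 was well above background on 1 array. Ear6, a ribonuclease, differed by -0.79 (standard error 0.44) and made up most of the summed level on the arrays labelled S1pr2-/-. Without it the tested genes summed to 2.54 and 7.95 on the wild-type arrays and to 0.12 and 0.21 on the others. Ccr3 and Il5ra of this list were also listed by the study from these arrays. Of 13 neutrophil genes 11 were tested, with 5 lower on both, 1 higher on both, 2 at least 2-fold lower and a median difference of -0.11. The 2 were Mmp9, a granule protease, at -1.67 (standard error 0.53), and S100a9, a calcium-binding protein, at -1.46 (standard error 0.79). Mmp9 was at the floor on replicate 2 labelled S1pr2-/- and was also listed by the study from these arrays. Without that replicate Mmp9 differed by -1.05 and S100a9 by -0.47. In the other direction, Ltf differed by 0.36 (standard error 0.53) and S100a8 by 0.25 (standard error 0.20). Elane, the gene higher on both, differed by 0.15 (standard error 0.06). The summed level of the neutrophil list was 85.4 and 82.3 in wild-type replicates 1 and 2. It was 75.6 and 68.9 in the replicates labelled S1pr2-/-, and Ngp was nowhere well above background. Csf3r, the brightest gene of this list, made up a large part of the sum on every array and differed by -0.28 (standard error 0.08). The part of either cell type in the Retnla and Retnlg values was not tested. The 11 alveolar macrophage genes had a median difference of -0.01, with 3 lower and 3 higher on both arrays, beside the overlapping values of Chil3. Of 7 genes of monocyte-derived macrophages 4 were higher on both arrays and 0 lower, with a median of 0.54, and of 8 mast cell and basophil genes 3 were tested, all 3 lower on both, with a median of -0.59. Of 14 epithelial genes 6 were lower on both arrays, 0 higher and 1 at least 2-fold lower (Muc5ac, a mucin, -1.11), with a median of -0.28, and their summed level overlapped between genotypes. Without wild-type replicate 2, Muc5ac differed by -0.48. In the other direction, Foxj1, Bpifa1 and Scgb1a1 differed by 0.41, 0.34 and 0.22, with standard errors of 0.43, 0.59 and 0.53. Of 6 T cell genes 3 were lower on both arrays and 0 higher, with a median of -0.36 and a summed level of 16.4 and 17.7 in wild-type against 14.8 and 10.9. Of 5 B cell genes 0 were lower or higher on both arrays and 1 was at least 2-fold lower, with a median of -0.72, and 6 dendritic cell genes had a median of -0.04. Their part in the members' values was not tested either. Of all probes tested, 21.7% were lower on both, 20.0% higher on both and 1.24% at least 2-fold lower.

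The IL-4 and IL-13 pathway that induces Retnla, Chil3 and Chil4 was followed from its ligands to other induced genes. Both ligands were lower: Il4 had log2 values of -1.42 and -0.14 in wild-type replicates 1 and 2, against -4.43 and -4.26 in the replicates labelled S1pr2-/-, 11.8-fold lower, or 7.60-fold without wild-type replicate 2 and 18.4-fold without wild-type replicate 1. Il13 had -4.57 and -2.78 in wild-type, and both replicates labelled S1pr2-/- lay at the floor of -6.64, a difference of at least 7.85-fold with this floor (standard error 0.70 on the log2 scale). The bound for Il13 was 4.22-fold without wild-type replicate 2 and 14.6-fold without wild-type replicate 1. Of 4 receptor genes 1 was lower and 1 higher on both arrays, with 0 at least 2-fold lower, and Il4ra differed by -0.28 (standard error 0.11). Of 4 signalling genes 1 was lower and 1 higher on both, and Stat6 differed by 0.07 (standard error 0.10). The feedback inhibitors Socs1 and Cish differed by -1.74 and -1.05.

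Of 15 other genes induced by IL-4 or IL-13 in macrophages, 12 were lower on both arrays labelled S1pr2-/- and 1 was higher, with a median of -0.40. Of all probes tested, 21.7% were lower on both and 20.0% higher. At least 2-fold lower were 4 of 15, against 1.24% of all probes. Sizes differed widely: Alox15 differed by -4.83 (standard error 0.97) and Mrc1, the mannose receptor, by -0.02 (standard error 0.07). Without the 3 genes that the study had listed from these arrays (Ccl17, Ccl24 and Alox15), 9 of 12 were lower on both, with a median of -0.30. Of these 12, 1 was at least 2-fold lower. These 12 were measured on the same arrays, and their list was chosen with earlier results known, so nothing is read from their share. Il4, Il13, Socs1, Cish and Retnla were listed by the study in the same way, so their direction is not independent evidence. limma called 0 genes of any list at an adjusted p under 0.05.

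Relatives and proposed partners of the members differed little. Of 3 tested GH18 relatives 1 was lower on both arrays, Ovgp1, which differed by -0.60 (standard error 0.10), while Chid1 and Ctbs differed by -0.02 and 0.06. Of 6 proposed binding partners of the members 2 were lower and 0 higher on both arrays, with a median of -0.09: Tlr4 and Lgals3 differed by -0.14 and -0.17, and the resistin-binding Cap1 by 0.18.

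**Figure D5:**
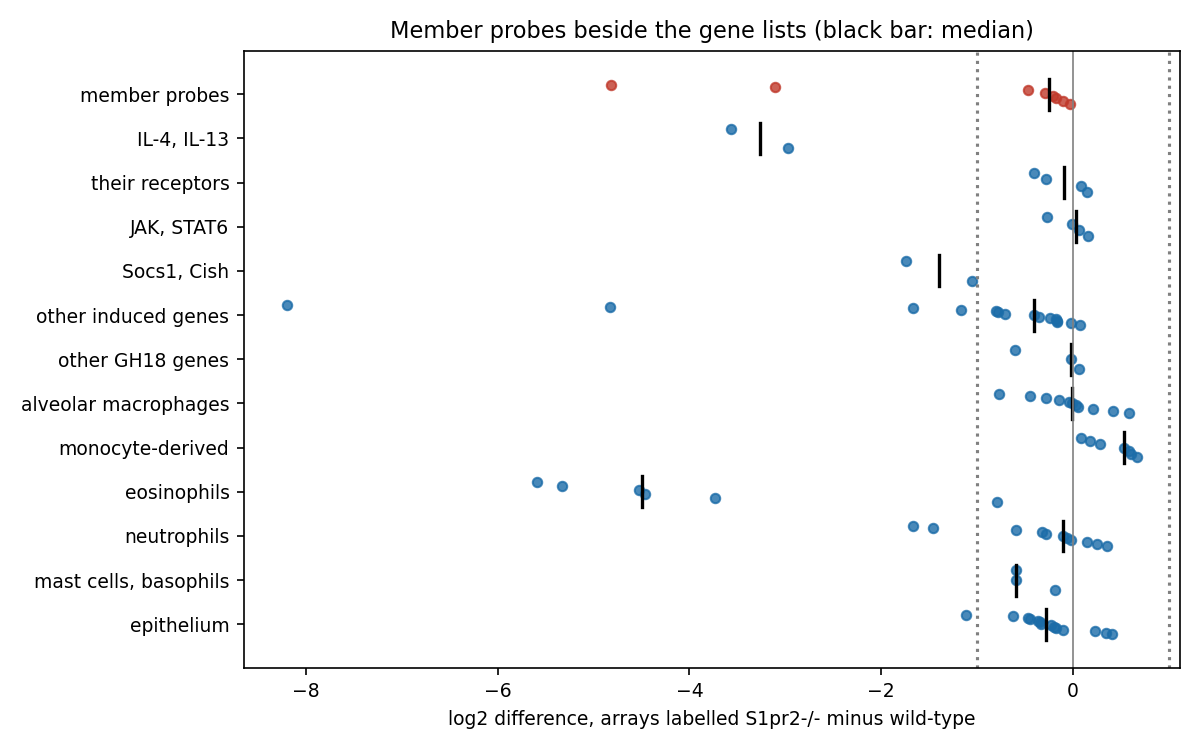
Log2 difference (arrays labelled S1pr2-/- minus wild-type) of each tested gene by list, with the member probes in red, medians as black bars and dotted lines at 2-fold. The eosinophil list (median -4.50) and the ligands lie far to the left, and the alveolar macrophage list (median -0.01) is centred near 0.

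Retnlb, Retnla and Retnlg are neighbours in gene order on chromosome 16 in RefSeq, with Trat1 before and Dzip3 after them. Retnla and Retnlg differed by -3.11 and -4.81, whereas Retnlb and Dzip3 were not well above background in either genotype, and Trat1, an adaptor of T cells, differed by -1.28 (standard error 0.36). On chromosome 3, Chia1, Chil3, Chil4 and Chil6 follow each other, and the neighbour beyond them, Dennd2d, differed by -0.16. Chit1 and Chil1 are neighbours on chromosome 1, and Retn lies on chromosome 8 between Stxbp2 (0.17) and Mcemp1 (0.14).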

How the data were processed

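Per the labels, RNA of BALF cells was hybridised to one-colour Agilent arrays. The deposited scanner files hold signal intensity per spot from Agilent Feature Extraction 10.7.3.1, with background already subtracted in the processed signal, and a deposited table holds the authors' log2 values, used as an alternative. Control spots and outlier-flagged spots were left out, spots of a probe averaged, and each array divided by its 75th percentile of intensity, floored at 0.01 and taken to log2. Tested were probes with a value on every array that stood well above background in each replicate of 1 genotype or both (27158 of 39429). limma 3.58.1 in R 4.3.3 with Benjamini-Hochberg adjustment compared genotypes, and was tested on simulated data. RefSeq named 27427 probes. For genes with several probes the brightest was used in lists. The number of arrays limits precision. The members and gene lists were chosen with earlier results of these data known. All members were named, with the 3 genes nearest to Retnla and Retnlg. The alternatives were other scalings, background corrections, filters and fits, and each array left out. The values of 1 listed gene are not reported here.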

Additional observations from a re-analysis of the deposited data

How the results depend on the processing

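Retnla and Retnlg stayed at least 2-fold lower under every alternative run: with all arrays Retnla ranged from -3.15 to -3.09 and Retnlg from -4.81 to -4.58, and with 1 array left out from -3.87 to -2.35 and from -5.65 to -3.97. The member probes lower on both arrays labelled S1pr2-/- numbered 3 under quantile normalization, the cause of which was not tested. They numbered 3 under normexp fitted on all spots and 6 under normexp fitted without control spots. The member probes higher on both numbered 0 to 1 with 1 array left out, the 1 being Chil1 without S1pr2-/- replicate 2. limma called 0 probes under the alternatives run except 2 under normexp fitted without control spots, an alternative chosen after seeing the data because the planned fit on all spots gave the first array labelled S1pr2-/- a background of -418 intensity units, against 4.72 to 8.15 on the others. That fit also used the median spot signal and left 6 member probes lower on both. The replicate block gave 0 called probes and 2 members at least 2-fold lower. The labels tie the replicate numbers to no shared animal, batch or day. Same-numbered arrays correlated at 0.19 in their deviations, and 2 pairs are too few to settle whether the numbers pair the samples. The methods' t-test gave 2060 probes at an unadjusted p under 0.05 and 0 after adjustment.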
